A study of Xenopus laevis with 12 samples.

Results

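The gene set described here is the response that arrays labelled kctd15 shared across both injection settings of a Xenopus laevis animal cap experiment. Its members were probe sets for which the log2 difference between arrays with and without the kctd15 label had the same sign in both settings. Of 32475 probe sets tested, 17864 (55%) met that rule, and 768 of these also passed an adjusted p of 0.05 for the kctd15 main effect. By gene symbol, 6797 of 11303 met the rule with at least 1 probe set and 335 passed, while 366 of the 768 had no single symbol. That main effect is the difference between the 6 arrays with the label and the 6 without it, fitted in limma together with a term for wnt3a and chordin. A main effect of 1 on the log2 scale is a 2-fold difference.

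Animal caps are the ectoderm of the blastula roof, which forms epidermis when left alone, neural tissue when BMP signalling is blocked by an antagonist such as Chordin, and neural crest when a Wnt ligand is supplied as well. Kctd15 is a BTB-domain protein known to bind and inhibit the transcription factor AP-2 and to restrain neural crest formation. AP-2 and the p53 relative p63 both act in early ectoderm, AP-2 in epidermis, neural plate border and crest, and p63 in the basal epidermis and its adhesion to the underlying matrix.

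The 12 arrays formed 4 groups of 3, and each array held RNA of caps cut at stage 9 and kept in culture up to stage 15. The embryos had received mRNA in the animal pole at the 2-cell stage: wnt3a, chordin and kctd15 together (wnt3a+chordin+kctd15), wnt3a with chordin (wnt3a+chordin), kctd15 with no other message named (kctd15), or lacZ (lacZ), the message of a bacterial enzyme. These are the groups as labelled. No line or strain of frog is named in the labels, which also leave unsaid whether arrays of a group had different parents or clutches; p values thus measure the spread between these arrays, which may be technical. In whole caps, fewer cells of a type and less RNA per cell cannot be told apart.

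Array medians lay between 7.17 and 7.28 on the log2 scale, and arrays of a group correlated at 0.97 to 0.99 over probe sets. The mean over 14 epidermal marker genes was 8.75 to 9.74 in wnt3a+chordin+kctd15 arrays, 9.13 to 10.57 in wnt3a+chordin arrays, 11.16 to 11.59 in kctd15 arrays and 12.23 to 12.41 in lacZ arrays. Its members differed. In the same order of groups, epcam.L averaged 13.05, 14.02, 13.27 and 13.67, and gata3.S averaged 5.26, 4.59, 10.07 and 10.46. Both copies of tp63, described below as lower, are among the 14. Replicate 2 of wnt3a+chordin+kctd15 and replicate 3 of lacZ stood apart from their groups by muscle transcripts. The mean of 36 muscle genes was 5.36, 7.26 and 6.05 in the wnt3a+chordin+kctd15 arrays, 5.32, 6.67 and 6.54 in the wnt3a+chordin arrays, 5.40, 5.19 and 5.83 in the kctd15 arrays, and 5.18, 5.08 and 6.78 in the lacZ arrays. Counts are therefore also given without replicate 2 of wnt3a+chordin+kctd15 and replicate 3 of lacZ. Replicates 2 and 3 of wnt3a+chordin, at 6.67 and 6.54, were nearly as high and stayed in. Those counts are therefore not free of arrays high in muscle transcripts. Other marker sets varied as well. Notochord and axial mesoderm markers averaged 4.31, 8.46 and 5.64 in the wnt3a+chordin+kctd15 arrays and 4.36, 7.26 and 7.50 in the wnt3a+chordin arrays. Their means were 4.51, 4.26 and 6.52 in the kctd15 arrays and 4.68, 5.18 and 7.56 in the lacZ arrays. Neural plate markers averaged 7.02, 7.12 and 8.42 in the kctd15 arrays and 7.09, 7.34 and 9.20 in the lacZ arrays. A bacterial lac operon reporter on the array averaged 4.96 in wnt3a+chordin+kctd15 arrays, 13.95 in wnt3a+chordin arrays, 13.53 in kctd15 arrays and 14.24 in lacZ arrays. Of the groups, only wnt3a+chordin+kctd15 was low in it, although the labels name lacZ for 1 group alone. The labels leave unsaid whether lacZ message was also injected beside the named ones. In the setting with wnt3a and chordin, labelled and unlabelled arrays therefore differ in this reporter as well as in the kctd15 label, and its part in the results was not tested.

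The injected gene itself went against its label. The probe set of kctd15.L read 3.52, 6.77 and 5.18 in wnt3a+chordin+kctd15 arrays, 10.99, 10.22 and 10.78 in wnt3a+chordin arrays, 4.17, 3.77 and 6.43 in kctd15 arrays, and 11.22, 10.96 and 10.70 in lacZ arrays. All 6 arrays labelled kctd15 lay below all 6 without the label, with a main effect of -5.83 (SE 0.55, limma adjusted p = 0.000456) that was the lowest of all called probe sets. Where this probe set lies relative to the injected message is not given in the sources used here, so it does not check the presence of that message. Every direction below rests on the labels as deposited, and the arrays are called kctd15-labelled for that reason. The wnt3a.S probe set did follow its label, at 12.02 to 12.90 in the wnt3a+chordin+kctd15 arrays, 12.47 to 12.97 in the wnt3a+chordin arrays, 3.87 to 4.94 in the kctd15 arrays and 5.21 to 6.43 in the lacZ arrays. The chrd.1.S probe set was also high in replicate 3 of kctd15 (9.08) and of lacZ (9.37), where the other 2 arrays read 5.23 and 4.48 for kctd15 and 4.08 and 3.79 for lacZ.

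Lower probe sets outnumbered higher ones among those past the threshold. Of the 768 called probe sets, which are 2.36% of those tested, 493 (1.52%) were lower and 275 (0.847%) were higher in kctd15-labelled arrays. By at least 2-fold, 279 were lower and 87 higher. The median main effect was -1.08 for the lower and 0.80 for the higher probe sets, against 0.02 over all probe sets tested. Counts made without that threshold went both ways. In 4464 probe sets (13.7% of those tested), all 6 differences between arrays of the same replicate number had 1 direction. Of these, 2407 were higher and 2057 lower. In 627 of the 768, the 3 arrays with the label lay entirely to 1 side of the 3 without it in both settings. Over all probe sets tested, this separation was seen for 453 in the higher direction (1.39%) and 562 in the lower (1.73%). The up to 12 genes per direction named below for the largest effect were taken from called probe sets separated in this way. Their lack of overlap was therefore fixed by that choice. With the replicate number as a block, 680 probe sets were higher (2.09%) and 798 lower (2.46%), and 756 of the 768 calls were kept. Without replicate 2 of wnt3a+chordin+kctd15 and replicate 3 of lacZ, 177 were higher and 347 lower, and 439 of the 768 were kept. When replicate 3 of kctd15 was left out as well, 121 were higher and 234 lower. Leaving out 1 array changed the 768 to 355, 397 and 440 without replicates 1, 2 and 3 of kctd15, and to 385, 321 and 404 without replicates 1, 2 and 3 of lacZ. The counts were 561, 773 and 547 without replicates 1, 2 and 3 of wnt3a+chordin. Without replicates 1, 2 and 3 of wnt3a+chordin+kctd15 they were 583, 938 and 592.

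**Figure D1:**
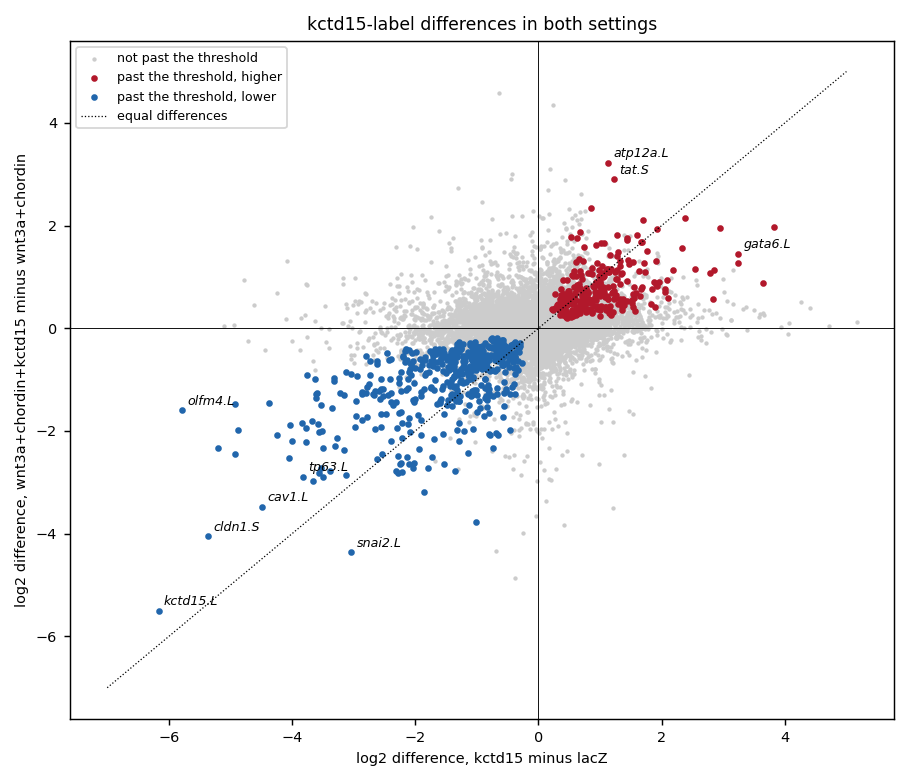
Each point is 1 probe set, with its log2 difference between kctd15 and lacZ arrays on the x axis and between wnt3a+chordin+kctd15 and wnt3a+chordin arrays on the y axis. The 493 lower (blue) and 275 higher (red) probe sets past the threshold lie in the lower left and upper right of the plot, and points on the dotted line have equal differences in both settings.

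The change was more often larger without wnt3a and chordin. The absolute difference was larger between kctd15 and lacZ arrays for 570 of the 768 called probe sets (74.2%), against 65.9% of all tested. The median absolute difference of the called probe sets was 0.73 on the log2 scale between wnt3a+chordin+kctd15 and wnt3a+chordin arrays and 1.1 between kctd15 and lacZ arrays, against 0.11 and 0.18 over all tested. The interaction test, which asks whether both differences are equal, passed for 40 of the 768, of which 36 changed more without wnt3a and chordin and 4 changed more with them. Over all probe sets it passed for 371 (1.14%). None of the probe sets past the threshold for the main effect had opposite signs in both settings, as the additive fit counts a difference between settings as error; with 4 group means fitted instead, 171 did. Tested within a single setting, 94 of the 768 passed in both, 587 passed between kctd15 and lacZ arrays, 125 passed between wnt3a+chordin+kctd15 and wnt3a+chordin arrays, and 150 passed in neither. Over all probe sets, those comparisons called 2269 (6.99%) and 210 (0.647%).

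Both homeologs of tp63, which encodes p63, were among the most reduced genes. The tp63.L probe set read 6.04, 6.73 and 6.55 in wnt3a+chordin+kctd15 arrays, 9.48, 9.22 and 9.29 in wnt3a+chordin arrays, 6.06, 4.93 and 7.13 in kctd15 arrays, and 9.82, 10.05 and 9.73 in lacZ arrays. Labelled and unlabelled arrays were more than 2 log2 units apart in both settings, and the main effect was -3.36 (SE 0.32, adjusted p = 0.000492). For tp63.S it was -3.29 (SE 0.33, adjusted p = 0.000661). Over all symbols, 1.57% were lower and 1.07% higher, and this and every later list count is to be read against those shares. Of 31 measured members of the epidermis list 1 was higher, 2 were lower and 28 did not pass (median -0.14). The lower pair was tp63 itself and the higher was krt19.S, a keratin. Its probe set with the highest mean read 11.93, 10.36 and 12.29 in wnt3a+chordin+kctd15 arrays, 10.53, 9.94 and 10.67 in wnt3a+chordin arrays, 13.71, 13.69 and 13.67 in kctd15 arrays and 10.74, 11.11 and 11.57 in lacZ arrays. The arrays overlapped in the setting with wnt3a and chordin, and the main effect was 1.85 (SE 0.36, adjusted p = 0.0239). The probe set of krt19.S with the largest effect gave 1.99 (adjusted p = 0.0238). Its call was lost in 7 of the fits with 1 array left out, at up to 0.0649 without replicate 2 of lacZ. Here and below, an array named beside a lost call is the one whose omission gave the highest adjusted p. Other omissions often lost the call too. Of the epidermal markers, krt12.4.L had a main effect of -0.62 (adjusted p = 0.70) and cdh1.S, E-cadherin, one of -0.06 (adjusted p = 0.974).

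Caveola genes fell in 4 cases. Caveolae are small pits of the plasma membrane built from caveolins and cavins. The probe set of cav1.L, the caveolin that scaffolds them, read 7.00, 8.18 and 6.37 in wnt3a+chordin+kctd15 arrays, 10.98, 10.42 and 10.58 in wnt3a+chordin arrays, 5.26, 3.77 and 6.29 in kctd15 arrays, and 9.81, 10.02 and 8.94 in lacZ arrays. No labelled array reached an unlabelled one in its setting, and the main effect was -3.98 (SE 0.44, adjusted p = 0.00112), a 15.8-fold difference. The main effect was -2.45 for cav2.L (adjusted p = 0.0222), -1.69 for cavin2.S (adjusted p = 0.033) and -1.63 for cavin1.L (adjusted p = 0.0332). For cav2.L, cavin2.S and cavin1.L, labelled and unlabelled arrays overlapped in the setting with wnt3a and chordin. Differences there were -1.54, -1.38 and -0.64, and none passed in that setting (adjusted p of 0.506, 0.517 and 0.658). Between kctd15 and lacZ arrays they were -3.35, -2.01 and -2.62. Of 16 measured members of the caveola list, these 4 fell, none rose and 12 did not pass, with a list median of -0.11. The other homeologs of both caveolins did not pass, with main effects of 0.17 for cav1.S and 0.86 for cav2.S. The calls of cav2.L, cavin1.L and cavin2.S were lost with 1 array left out, at adjusted p of up to 0.0582, 0.086 and 0.0818, the first and second without replicate 2 of lacZ and the last without replicate 2 of kctd15.

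Genes of focal adhesions, where integrins tie the extracellular matrix to actin, held the largest number of lower calls among the 35 lists. Of 53 measured members 14 fell, none rose and 39 did not pass (median -0.21) against 0.02 over all symbols, where 1.57% were lower and 1.07% higher. The probe set of itga5.L with the largest effect, the α5 chain of the fibronectin receptor, read 7.42, 7.29 and 7.86 in wnt3a+chordin+kctd15 arrays, 9.70, 9.10 and 9.53 in wnt3a+chordin arrays, 5.87, 5.67 and 6.82 in kctd15 arrays, and 9.09, 9.09 and 9.12 in lacZ arrays. The arrays were apart in both settings, with a main effect of -2.45 (SE 0.25, adjusted p = 0.000661). A second, brighter probe set of itga5.L gave -1.18 (adjusted p = 0.0322), and itga5.S gave -1.15 (adjusted p = 0.00022).

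The actin crosslinker α-actinin 1, actn1.L, read 6.86, 8.49 and 7.23 in wnt3a+chordin+kctd15 arrays, 9.70, 9.14 and 9.56 in wnt3a+chordin arrays, 9.32, 9.25 and 9.77 in kctd15 arrays, and 11.80, 11.83 and 11.60 in lacZ arrays. Labelled arrays were lower in both settings without overlap, by -2.12 (SE 0.24, adjusted p = 0.00132). Its homeolog actn1.S fell by 1.17 on the log2 scale (adjusted p = 0.0332). The heparan sulphate proteoglycan sdc1.L had a main effect of -1.86 (adjusted p = 0.0124). For rsu1.L, a partner of the integrin-linked kinase complex, it was -1.49 (adjusted p = 0.0288), a call lost without replicate 1 of kctd15 (adjusted p = 0.0718). With wnt3a and chordin the sdc1.L arrays overlapped. Differences there were -1.18 for sdc1.L and -0.91 for rsu1.L (adjusted p of 0.314 and 0.635 in that setting). Between kctd15 and lacZ arrays they were -2.55 and -2.06. The remaining lower members were the adaptors lims1.S, parvb.S, fblim1.S, tes.L, pdlim1.S and lasp1.L, kindlin-2 (fermt2.L) and the kinase src.S, with main effects from -1.28 for lims1.S to -0.67 for fermt2.L. The call of lims1.S was lost with the replicate block (adjusted p = 0.0579). A pair of core components stayed short of the threshold, itgb1.S (the β1 integrin chain) at -0.59 (adjusted p = 0.106) and vcl.S (vinculin) at -0.12 (adjusted p = 0.734).

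The actin filament and myosin list had 6 lower, no higher and 52 members that did not pass, out of 58, with a median of -0.13. The actin-binding protein tagln2.S had a main effect of -1.16 (adjusted p = 0.00256), the class I myosin myo1e.2.L one of -1.0 (adjusted p = 0.00771), the actin bundler pls3.L one of -0.92 (adjusted p = 0.00781) and the tropomyosin tpm4.S one of -0.94 (adjusted p = 0.0431), a call lost without replicate 3 of lacZ (adjusted p = 0.101). The tpm4.S difference was -0.46 with wnt3a and chordin (adjusted p = 0.866 in that setting) and -1.43 between kctd15 and lacZ arrays. The other members past the threshold, tpm3.S and arpc2.S, moved by -0.35 and -0.46. With the replicate block 9 were lower. The caveola, focal adhesion and actin lists, and those of claudins, uroplakins and NRF2 below, were drawn up after values had been seen, so that their counts describe what was noticed and carry no weight of their own.

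**Figure D2:**
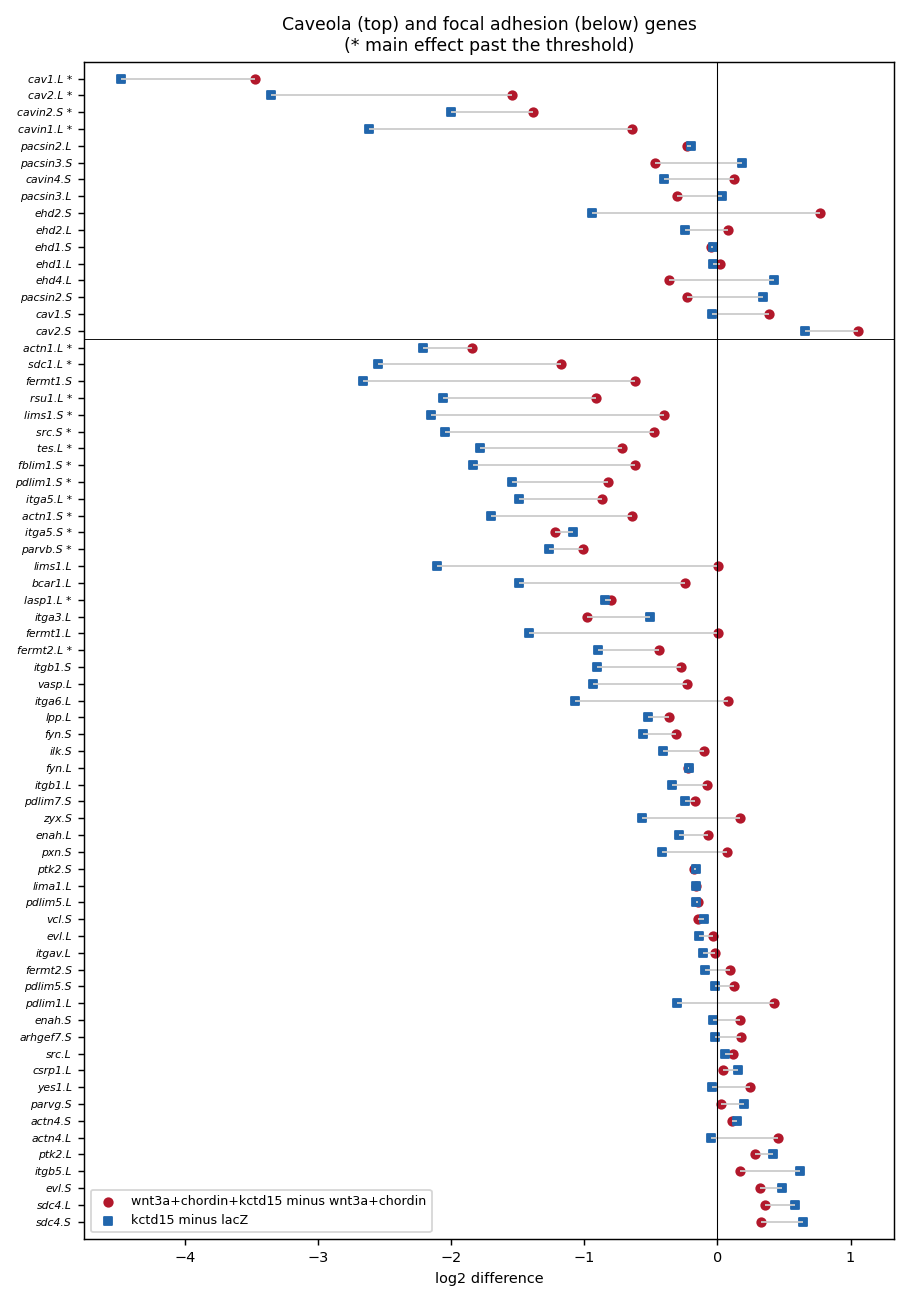
Each row is 1 measured gene of the caveola list (top) or the focal adhesion list (below), with the log2 difference between wnt3a+chordin+kctd15 and wnt3a+chordin arrays as a circle and between kctd15 and lacZ arrays as a square, for the probe set with the highest mean. Asterisks mark the 4 caveola and 14 focal adhesion genes past the threshold, whose 2 symbols all lie left of 0.

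Cell-cell junction genes moved in both directions. Of 34 measured claudin and desmosome genes, 4 fell, 2 rose and 28 did not pass (median 0.04). The tight junction gene cldn1.S read 5.75, 8.99 and 5.36 in wnt3a+chordin+kctd15 arrays, 11.16, 10.58 and 10.50 in wnt3a+chordin arrays, 7.1, 4.23 and 7.07 in kctd15 arrays, and 11.79, 11.53 and 11.18 in lacZ arrays. Replicate 2 of wnt3a+chordin+kctd15 was the highest labelled array yet lay below every unlabelled one, and the main effect was -4.71 (SE 0.67, adjusted p = 0.0046). Also lower were cldn6.1.S (-2.25, adjusted p = 0.00321), cldn6.2.L (-0.74, adjusted p = 0.0371) and the desmosomal plakophilin pkp2.L (-1.92, adjusted p = 0.000705). The desmosomal cadherin dsc3.S rose by 1.12 (adjusted p = 0.0172) and cgn.L, cingulin, by 0.45 (adjusted p = 0.0322).

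In the list of adhesion molecules and matrix, 5 of 46 measured members fell, none rose and 41 did not pass (median -0.06). Beside itga5 these were the protocadherin pcdh7.L (-1.99, adjusted p = 0.0318), the elastic fibre protein emilin1.L (-2.06, SE 0.26, adjusted p = 0.00245) and the collagen chain col1a2.L (-0.77, adjusted p = 0.0318). With the block, cdh3.L counted as higher (0.46, adjusted p = 0.027). Without replicate 2 of lacZ the call of pcdh7.L was lost (adjusted p = 0.0843). The pcdh7.L difference was -0.85 with wnt3a and chordin (adjusted p = 0.682 in that setting) and -3.13 between kctd15 and lacZ arrays.

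A few proteases were lower. Of 33 calpains and other proteases 4 fell, none rose and 29 did not pass (median -0.02). The matrix metalloproteinase mmp3.L had a main effect of -3.69 (SE 0.69, adjusted p = 0.0214), the calcium-activated proteases capn2.L and capn1.L had -1.70 (adjusted p = 0.00865) and -1.0 (adjusted p = 0.036), and their small subunit capns1.L had -1.02 (adjusted p = 0.0107). Calls of mmp3.L and capn1.L were lost with 1 array left out, at adjusted p of up to 0.0593 without replicate 1 of kctd15 and up to 0.0917 without replicate 2 of kctd15. With wnt3a and chordin the differences were -2.45 for mmp3.L and -0.99 for capn2.L (adjusted p of 0.486 and 0.173 in that setting). Between kctd15 and lacZ arrays they were -4.92 and -2.41.

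Autotaxin, the secreted enzyme that makes lysophosphatidic acid and is encoded by enpp2.S, read 4.59, 5.64 and 5.84 in wnt3a+chordin+kctd15 arrays, 8.82, 7.42 and 8.25 in wnt3a+chordin arrays, 5.23, 4.96 and 5.15 in kctd15 arrays, and 9.60, 8.76 and 7.66 in lacZ arrays. Both sets of labelled arrays lay below 6, and the main effect was -3.19 (SE 0.36, adjusted p = 0.00123). The other copy, enpp2.L, did not pass (-0.62, adjusted p = 0.584). The secreted glycoprotein gene olfm4.L also fell (-3.69, SE 0.76, adjusted p = 0.0309). Its differences were -1.59 between wnt3a+chordin+kctd15 and wnt3a+chordin arrays and -5.79 between kctd15 and lacZ arrays. Its call was lost without replicate 2 of lacZ (adjusted p = 0.0817). It was also lost without both replicate 2 of wnt3a+chordin+kctd15 and replicate 3 of lacZ (adjusted p = 0.112).

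Some further lower genes were picked after their values were seen, for their small spread between arrays. The Ras activator rasgrp1.L read 6.86, 7.21 and 6.23 in wnt3a+chordin+kctd15 arrays, 9.39, 9.08 and 9.33 in wnt3a+chordin arrays, 7.07, 6.73 and 7.01 in kctd15 arrays and 8.92, 9.22 and 9.06 in lacZ arrays. The main effect was -2.31 (SE 0.16, adjusted p = 8.72e-05). The prostaglandin-forming cyclooxygenase ptgs2.S (-2.30, adjusted p = 0.00144), the kinase dapk2.L (-2.49, adjusted p = 0.00152) and the NADPH oxidase subunit cybb.L (-2.43, adjusted p = 0.00123) fell with no overlap in either setting.

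Neural crest genes fell as a minority of their list. Of 34 measured members 7 were lower, none was higher and 27 did not pass, and the median was -0.37 against 0.02 over all symbols. The crest transcription factor snai2.L read 4.86, 6.44 and 8.91 in wnt3a+chordin+kctd15 arrays, 11.71, 10.25 and 11.34 in wnt3a+chordin arrays, 3.43, 3.47 and 3.09 in kctd15 arrays, and 6.81, 5.71 and 6.58 in lacZ arrays. It was thus higher in wnt3a+chordin than in lacZ arrays and lower with the label in each setting, by -3.70 (SE 0.59, adjusted p = 0.00834). Its homeolog snai2.S gave -1.99 (adjusted p = 0.0308), with overlapping arrays in the setting with wnt3a and chordin.

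The SoxE factor sox8.L read 9.38, 9.15 and 11.34 in wnt3a+chordin+kctd15 arrays, 12.92, 12.18 and 12.42 in wnt3a+chordin arrays, 4.62, 4.72 and 5.02 in kctd15 arrays, and 6.75, 7.42 and 8.06 in lacZ arrays. The labelled arrays were lower in both settings and the size was alike, -2.55 between wnt3a+chordin+kctd15 and wnt3a+chordin arrays and -2.62 between kctd15 and lacZ arrays (main effect -2.59, SE 0.35, adjusted p = 0.00342). The Ets factor ets1.L had a main effect of -2.55 (SE 0.38, adjusted p = 0.00569) and snai1.S, a relative of snai2, one of -2.45 (SE 0.50, adjusted p = 0.0291). The other copy of ets1, ets1.S, did not pass (-0.78, adjusted p = 0.183). The call of snai1.S was lost without replicate 2 of lacZ (adjusted p = 0.0789). Its arrays did not overlap in either setting, but its difference with wnt3a and chordin was -1.29 (adjusted p = 0.67 in that setting). Between kctd15 and lacZ arrays it was -3.61.

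The endothelin receptor ednra.S, through which crest cells receive a migration and fate signal, had a small spread between arrays. It read 6.5, 6.75 and 7.17 in wnt3a+chordin+kctd15 arrays, 8.40, 8.50 and 8.57 in wnt3a+chordin arrays, 4.08, 3.72 and 4.19 in kctd15 arrays, and 6.18, 6.74 and 6.74 in lacZ arrays. It was lower with the label without overlap in both settings (-2.12, SE 0.19, adjusted p = 0.00037). The metalloprotease adam33.L, known in frogs as Adam13 and needed for crest migration, gave -1.46 (adjusted p = 0.00505). Both were named after their values were seen. Their other copies did not pass, with main effects of -0.19 for ednra.L (adjusted p = 0.864) and -0.10 for adam33.S (adjusted p = 0.813).

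Some other crest genes had a larger difference with wnt3a and chordin than without them and did not pass for the main effect. The difference between wnt3a+chordin+kctd15 and wnt3a+chordin arrays was -3.65 for sox10.L, -3.82 for sox9.S, -2.39 for foxd3.L and -1.68 for twist1.L, and that between kctd15 and lacZ arrays was -0.05, 0.42, -0.75 and -0.31, so that sox9.S, with opposite signs, is no member. In lacZ arrays the means were 3.48 for sox10.L, 6.67 for sox9.S, 4.54 for foxd3.L and 5.91 for twist1.L. The lowest value of any array was 2.38. Low levels of sox10.L and foxd3.L left little room for a fall, so their differences cannot show a weaker effect without wnt3a and chordin. The interaction did not pass for any of these 4 genes, with adjusted p of 0.0732 for sox9.S, 0.385 for twist1.L, 0.418 for sox10.L and 0.598 for foxd3.L. Main effects were -1.85 for sox10.L (adjusted p = 0.405), -1.70 for sox9.S (adjusted p = 0.35), -1.57 for foxd3.L (adjusted p = 0.16) and -1.0 for twist1.L (adjusted p = 0.186). The crest markers averaged 8.13 to 9.75 in wnt3a+chordin+kctd15 arrays, 10.40 to 11.23 in wnt3a+chordin arrays, 5.67 to 6.15 in kctd15 arrays and 5.75 to 7.04 in lacZ arrays.

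The AP-2 genes themselves did not pass. Main effects were -0.50 for tfap2a.L (adjusted p = 0.392), -0.61 for tfap2a.S (adjusted p = 0.329) and -0.62 for tfap2b.L (adjusted p = 0.584). Within the list of kctd15 and AP-2 genes, 2 of 8 measured members fell, none rose and 6 did not pass (median -0.63). Over all symbols, 1.57% were lower and 1.07% higher. The members past the threshold were kctd15.L, which is the injected gene itself, and inka1.L. In frogs inka1 is a crest gene that responds to AP-2, and its product binds a Pak kinase. The inka1.L probe set read 7.12, 7.82 and 9.54 in wnt3a+chordin+kctd15 arrays, 11.78, 10.12 and 11.06 in wnt3a+chordin arrays, 6.51, 6.42 and 7.19 in kctd15 arrays, and 8.59, 9.27 and 9.10 in lacZ arrays. All 6 labelled arrays were below their unlabelled counterparts, by -2.55 (SE 0.40, adjusted p = 0.00787). Of 10 other KCTD and Cul3 genes none passed, with a median of 0.09; the smallest p belonged to kctd18.L (0.31, adjusted p = 0.122), which passed with the block (adjusted p = 0.0485).

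**Figure D3:**
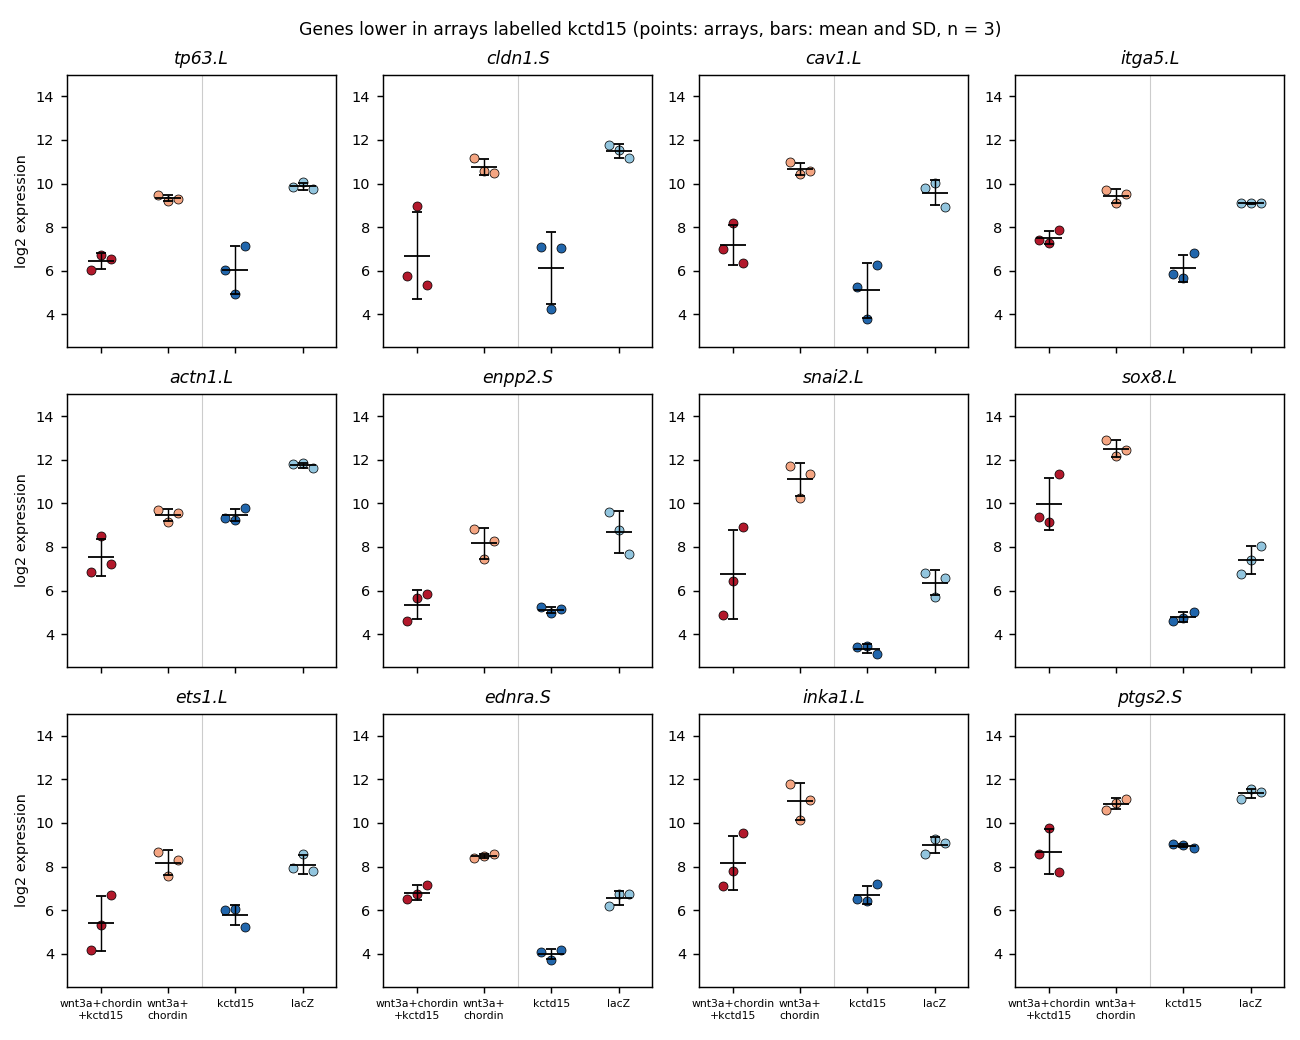
Log2 expression of 12 lower genes (y axis, the probe set with the largest effect) in the 4 groups (x axis), with 1 point per array and bars for the mean and SD of 3 arrays. In each panel the kctd15-labelled arrays lie below the unlabelled arrays to their right in the same setting, also where the groups with wnt3a and chordin start from a higher level, as for snai2.L and sox8.L.

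Among higher genes whose arrays did not overlap in either setting, gata6.L had the largest effect. This GATA factor is known from endoderm and heart, and both homeologs rose. The gata6.L probe set read 6.73, 6.04 and 7.18 in wnt3a+chordin+kctd15 arrays, 5.46, 5.03 and 5.1 in wnt3a+chordin arrays, 11.15, 10.44 and 10.13 in kctd15 arrays, and 7.71, 6.96 and 7.34 in lacZ arrays. The labelled arrays were above in both settings (2.35, SE 0.35, adjusted p = 0.00556). For gata6.S the main effect was 2.26 (SE 0.50, adjusted p = 0.0406). Its call was lost in 9 of the fits with 1 array left out, at up to 0.103 without replicate 2 of lacZ. The gata6.S arrays overlapped with wnt3a and chordin, with a difference of 0.88 (adjusted p = 0.836 in that setting). Between kctd15 and lacZ arrays the gata6.S difference was 3.64.

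Of the 25 endoderm genes, the gata6 pair rose, none fell and 23 did not pass (median 0.06). The 8 endoderm markers averaged 4.91 to 5.16 in wnt3a+chordin+kctd15 arrays, 4.66 to 4.74 in wnt3a+chordin arrays, 7.03 to 7.72 in kctd15 arrays and 5.27 to 5.63 in lacZ arrays. The gata5.S probe set averaged 5.01 in wnt3a+chordin+kctd15 arrays, 4.88 in wnt3a+chordin arrays, 11.14 in kctd15 arrays and 5.97 in lacZ arrays (main effect 2.65, SE 0.77, adjusted p = 0.114). The defining endoderm factor sox17b.1.S averaged 3.89 in wnt3a+chordin+kctd15 arrays, 3.86 in wnt3a+chordin arrays, 3.91 in kctd15 arrays and 4.17 in lacZ arrays. For sox17a.S the means were 4.38 in wnt3a+chordin+kctd15 arrays, 4.32 in wnt3a+chordin arrays, 5.76 in kctd15 arrays and 4.61 in lacZ arrays. Of the 8 markers, gata6.L and gata6.S passed.

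The cement gland gene agr2.S read 7.26, 6.68 and 7.29 in wnt3a+chordin+kctd15 arrays, 6.14, 4.68 and 5.26 in wnt3a+chordin arrays, 13.63, 13.15 and 12.97 in kctd15 arrays, and 11.88, 11.45 and 12.13 in lacZ arrays. No labelled array overlapped an unlabelled one of its setting (1.57, SE 0.24, adjusted p = 0.00672), whereas the other 7 of 8 measured cement and hatching gland genes did not pass; the list median was 0.40.

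Uroplakins, the plaque proteins of an epithelial outer face, were higher in 3 of 5 measured members, with a list median of 0.71. The upk3a.L probe set read 13.68, 13.19 and 13.37 in wnt3a+chordin+kctd15 arrays, 12.84, 12.42 and 12.41 in wnt3a+chordin arrays, 14.34, 14.24 and 14.12 in kctd15 arrays, and 13.68, 13.56 and 13.52 in lacZ arrays. It is a change of 0.75 (SE 0.11, adjusted p = 0.00517) with no overlap in either setting, and upk1a.L (0.71, adjusted p = 0.027) and upk1b.S (0.61, adjusted p = 0.0459) rose beside it. The calls of upk1a.L and upk1b.S were lost in 6 and 11 of the fits with 1 array left out. Their adjusted p rose to 0.0704 without replicate 1 of kctd15 and 0.114 without replicate 2 of kctd15.

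A pump and a channel gene also rose. The proton-potassium pump subunit atp12a.L read 6.28, 8.31 and 7.70 in wnt3a+chordin+kctd15 arrays, 4.08, 3.71 and 4.82 in wnt3a+chordin arrays, 12.64, 12.41 and 12.32 in kctd15 arrays, and 11.46, 11.58 and 10.92 in lacZ arrays. It was higher with the label in both settings (2.18, SE 0.44, adjusted p = 0.0275), and the call was lost without replicate 3 of lacZ (adjusted p = 0.0588). The potassium channel gene kcnk1, named after its values were seen, rose in both homeologs, by 2.26 for kcnk1.L (adjusted p = 0.0308) and 1.32 for kcnk1.S (adjusted p = 0.0473). Whether these kcnk1 calls hold with 1 array left out was not tested. None of 38 genes of ionocytes, ciliated cells and secretory cells passed, with a median of 0.03; atp6v1g3.L, a proton pump subunit, had the smallest p (1.65, adjusted p = 0.164).

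Enzymes and carriers were among the higher genes of large effect. The amino acid enzyme tat.S read 7.77, 7.13 and 7.24 in wnt3a+chordin+kctd15 arrays, 4.37, 4.48 and 4.57 in wnt3a+chordin arrays, 5.18, 5.52 and 4.98 in kctd15 arrays, and 4.02, 4.05 and 3.94 in lacZ arrays. It rose in both settings without overlap (2.07, SE 0.28, adjusted p = 0.00321). The neutral amino acid carrier slc43a1.L read 8.58, 8.46 and 8.13 in wnt3a+chordin+kctd15 arrays, 6.76, 6.81 and 6.3 in wnt3a+chordin arrays, 8.44, 8.32 and 8.12 in kctd15 arrays, and 7.08, 7.03 and 6.48 in lacZ arrays. Both settings gave nearly the same labelled and unlabelled levels (1.60, adjusted p = 0.00037).

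Of 57 measured metabolic enzymes and carriers 3 rose, none fell and 54 did not pass (median 0.07). Beside tat.S these were the glycolytic genes hk1.L, a hexokinase (1.11, SE 0.13, adjusted p = 0.00175), and pfkfb3.S, which sets fructose bisphosphate levels (1.41, adjusted p = 0.0371). A dimmer probe set than the one counted, for the cholesterol enzyme hmgcs1.L, was lower (-0.84, adjusted p = 0.0275). The calls of pfkfb3.S and hmgcs1.L were lost with 1 array left out, at up to 0.0934 without replicate 1 of kctd15 and 0.0737 without replicate 2 of lacZ.

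The prostaglandin D synthase hpgds.L, a member of the glutathione transferase family, read 10.21, 9.87 and 9.34 in wnt3a+chordin+kctd15 arrays, 7.89, 7.97 and 7.22 in wnt3a+chordin arrays, 10.87, 10.19 and 10.19 in kctd15 arrays, and 9.20, 8.98 and 8.01 in lacZ arrays. It was higher without overlap (1.90, SE 0.25, adjusted p = 0.00282). In the list of NRF2 and glutathione genes 3 of 29 rose, none fell and 26 did not pass (median 0.16). The other genes that rose were nfe2l2.S, which encodes the stress factor NRF2 (1.41, adjusted p = 0.0183), and keap1.L, its inhibitor (0.93, adjusted p = 0.0243). With the block, 7 were higher and 1 lower, as gsto1.S, gstp1.L, nqo1.L and txn.L joined the higher and txnrd1.L the lower genes. A dimmer probe set of gstp1.L passed without the block at 1.5 (adjusted p = 0.0477). It did not pass in 11 of the fits with 1 array left out, at up to 0.119 without replicate 2 of lacZ. The calls of nfe2l2.S and keap1.L were lost with 1 array left out, at up to 0.052 without replicate 2 of lacZ and 0.0655 without replicate 1 of kctd15.

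The remaining higher genes of large effect had mixed roles. They were the peptidase naalad2.L (1.71, SE 0.19, adjusted p = 0.00108), the mastermind-like mamld1.L (1.66, SE 0.23, adjusted p = 0.00379), the lipid phosphate phosphatase plpp3.S (1.39, adjusted p = 0.0336), the BMP-binding protein gene twsg2.S (1.38, adjusted p = 0.00321), the glucose transporter slc2a10.S (1.37, adjusted p = 0.0175) and the esterase-like aadacl4.S (1.36, adjusted p = 0.0069). Their arrays did not overlap in either setting, which was a condition for naming them. The calls of plpp3.S and slc2a10.S were lost with 1 array left out, at up to 0.0857 without replicate 2 of kctd15 and 0.0516 without replicate 2 of lacZ.

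**Figure D4:**
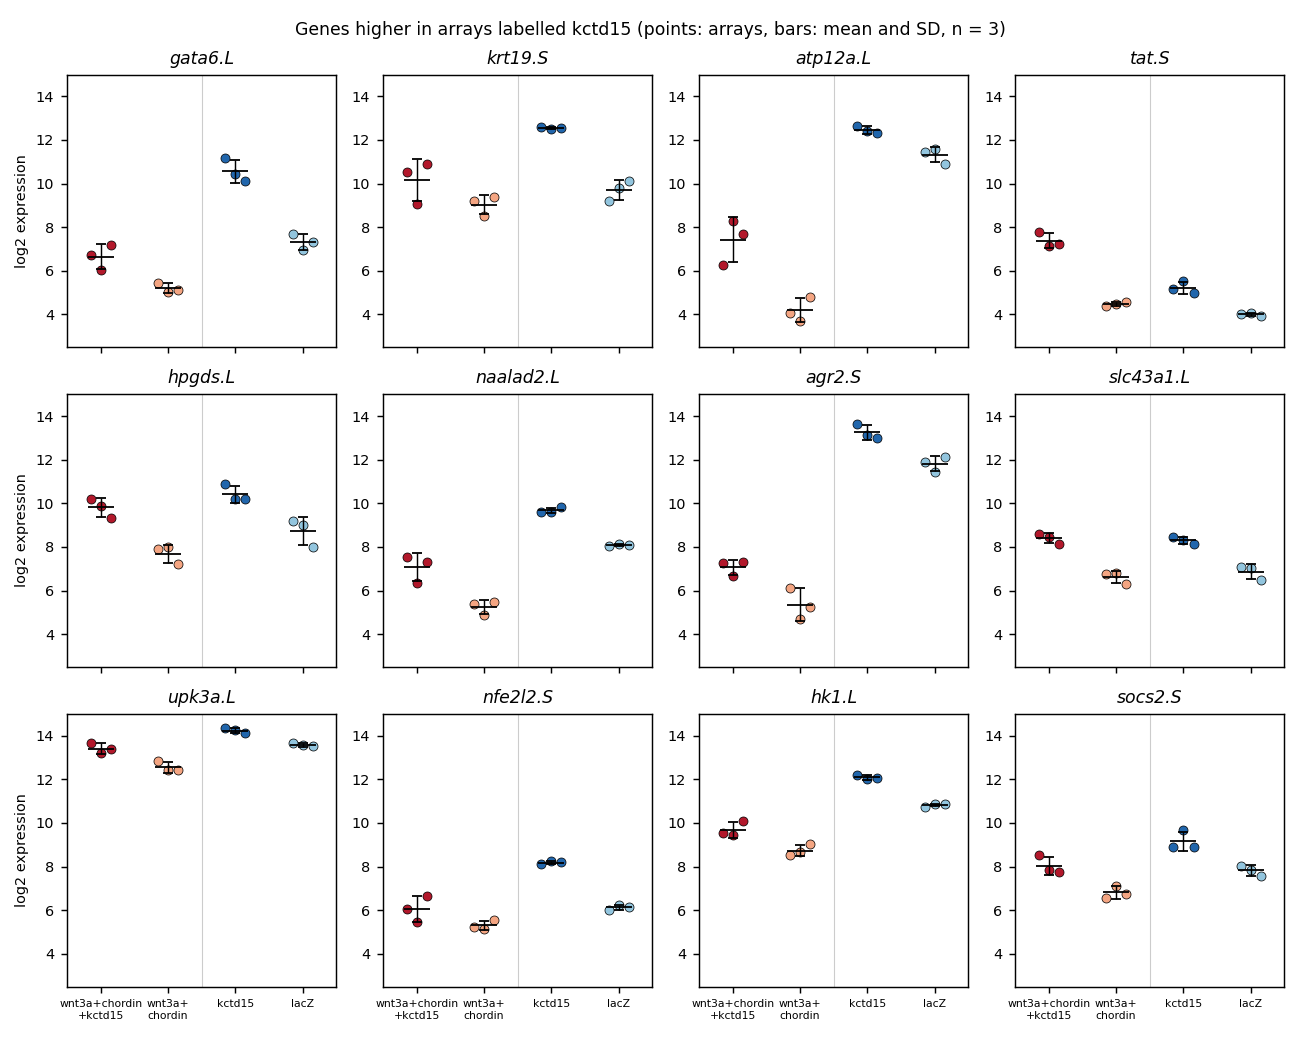
Log2 expression of 12 higher genes (y axis, the probe set with the largest effect) in the 4 groups (x axis), with 1 point per array and bars for the mean and SD of 3 arrays. The labelled arrays lie above the unlabelled ones to their right, apart from overlaps with wnt3a and chordin for krt19.S and nfe2l2.S.

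The signalling lists held up to 2 called genes each, to be read against 1.07% higher and 1.57% lower of all symbols. Among 45 Wnt targets and feedback genes 1 fell, none rose and 44 did not pass (median -0.05): kremen2.S, a co-receptor of the Wnt inhibitor Dickkopf (-0.78, adjusted p = 0.0295). The direct Wnt targets axin2.L and sp5.L had main effects of -0.74 (adjusted p = 0.266) and 0.27 (adjusted p = 0.827). Among 37 Wnt ligands, receptors and transducers 2 rose, none fell and 35 did not pass (median 0.02): the TCF factor tcf7l2.L (1.06, adjusted p = 0.0337) and the receptor fzd6.S (1.04, adjusted p = 0.0238). With the block, lrp6.L joined the higher and tle2.L the lower genes.

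Among 45 BMP targets and antagonists 1 rose, none fell and 44 did not pass (median 0.14). It was id2.S, a helix-loop-helix inhibitor (0.61, SE 0.10, adjusted p = 0.0105); with the block 3 were higher and 1, the BMP antagonist nog.L, was lower. None of 38 organizer genes passed (median 0.03), the smallest p being that of nog.L (-1.02, adjusted p = 0.0996, and 0.0214 with the block). None of 33 FGF and MAPK genes passed (median -0.06), the smallest p being that of the receptor fgfr3.L (0.49, adjusted p = 0.0879, and 0.0393 with the block). In the retinoic acid list 1 of 22 rose (rara.L, a retinoic acid receptor, 0.64, adjusted p = 0.0318; median 0.07). In the Notch list and in the neural plate border list, hes4.L, a repressor that frogs use at the border, was the member that fell (-1.0, adjusted p = 0.0333), 1 of 19 and 1 of 22, with medians of 0.15 and -0.16. The other copy, hes4.S, was above 0 without passing (0.56, adjusted p = 0.291). In the JAK-STAT list 1 of 25 rose, the feedback inhibitor socs2.S (1.27, SE 0.18, adjusted p = 0.0046; median 0.01). The calls of kremen2.S, tcf7l2.L and hes4.L were lost without replicate 1 of kctd15 (adjusted p of 0.0784, 0.0888 and 0.0888). That of fzd6.S was lost without replicate 1 of lacZ (0.0599), and that of rara.L without replicate 2 of lacZ (0.0812). With 1 array left out, the calls of kremen2.S, tcf7l2.L and hes4.L were lost in 8, 9 and 10 fits. Those of fzd6.S and rara.L were lost in 3 and 10.

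Among neural lists, at most 1 gene passed in each, to be read against 1.07% higher and 1.57% lower of all symbols. None of 34 pan-neural genes passed (median 0.20; smallest p for the replication licensing inhibitor gmnn.S, 0.47, adjusted p = 0.18), none of 30 anterior neural and eye genes (median -0.05; tcf7l1.L, a TCF repressor, -0.78, adjusted p = 0.203) and none of 30 hindbrain, spinal and Hox genes (median -0.21; hoxb2.S, -0.53, adjusted p = 0.292). None of 13 placode genes passed (median 0.11; the lens factor pitx3.S, 0.52, adjusted p = 0.239). Of 36 neuronal genes 1 rose, the neurofilament nefm.L (1.63, adjusted p = 0.0469; median -0.0036), and 2 rose with the block, stmn1.L being the second. Leaving out 1 array lost the call of nefm.L in 11 fits, at adjusted p of up to 0.113 without replicate 2 of kctd15.

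None of 36 muscle genes passed (median -0.08; the myosin myh6.S, 0.33, adjusted p = 0.109), and none of 28 blood and myeloid genes (median -0.02; the globin hbg1.L, -1.06, adjusted p = 0.0758, and 0.0456 with the block). Of 44 mesoderm genes 1 fell, the T-box factor tbx1.S (-0.36, adjusted p = 0.0337), with a list median of -0.10. The tbx1.S call was lost without replicate 3 of kctd15 (adjusted p = 0.0847). This probe set read 2.83 to 3.84 over all arrays, near the lowest value of any array (2.38), so a fall of an expressed gene is not shown. Of 32 p53, stress and apoptosis genes 1 rose and 2 fell, with a median of 0.02. The gene that rose was gadd45a.S (0.91, adjusted p = 0.0173). Those that fell were the kinase plk2.L (-1.24, adjusted p = 0.0284) and btg1.L (-0.74, adjusted p = 0.0217). Their other copies were above 0 without passing, plk2.S at 1.52 (adjusted p = 0.0786) and btg1.S at 0.11 (adjusted p = 0.83). With the block ccng1.S joined the higher and cdkn1a.L the lower genes. Of 62 cell cycle genes 1 rose, cyclin ccna2.L (0.53, adjusted p = 0.0315), and 1 fell, wee2.L (-0.51, adjusted p = 0.0355), with a median of 0.12. Over all symbols 1.07% were higher and 1.57% lower, and single calls in lists of this size are near those shares. With the block 4 were higher, the added ones being ccnb3.S, ccnd2.L and ccne2.S. Without replicate 1 of kctd15, ccna2.L, wee2.L and btg1.L did not pass (adjusted p of 0.0837, 0.0931 and 0.059), and without replicate 2 of lacZ plk2.L did not (0.0738).

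Over the 29 lists drawn up with the other choices, 15 of 819 measured genes rose (1.83%) and 26 fell (3.17%), against 1.07% and 1.57% of all symbols. These lists were also chosen with earlier results of these data known, so the excess over all symbols carries no weight of its own.

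**Figure D5:**
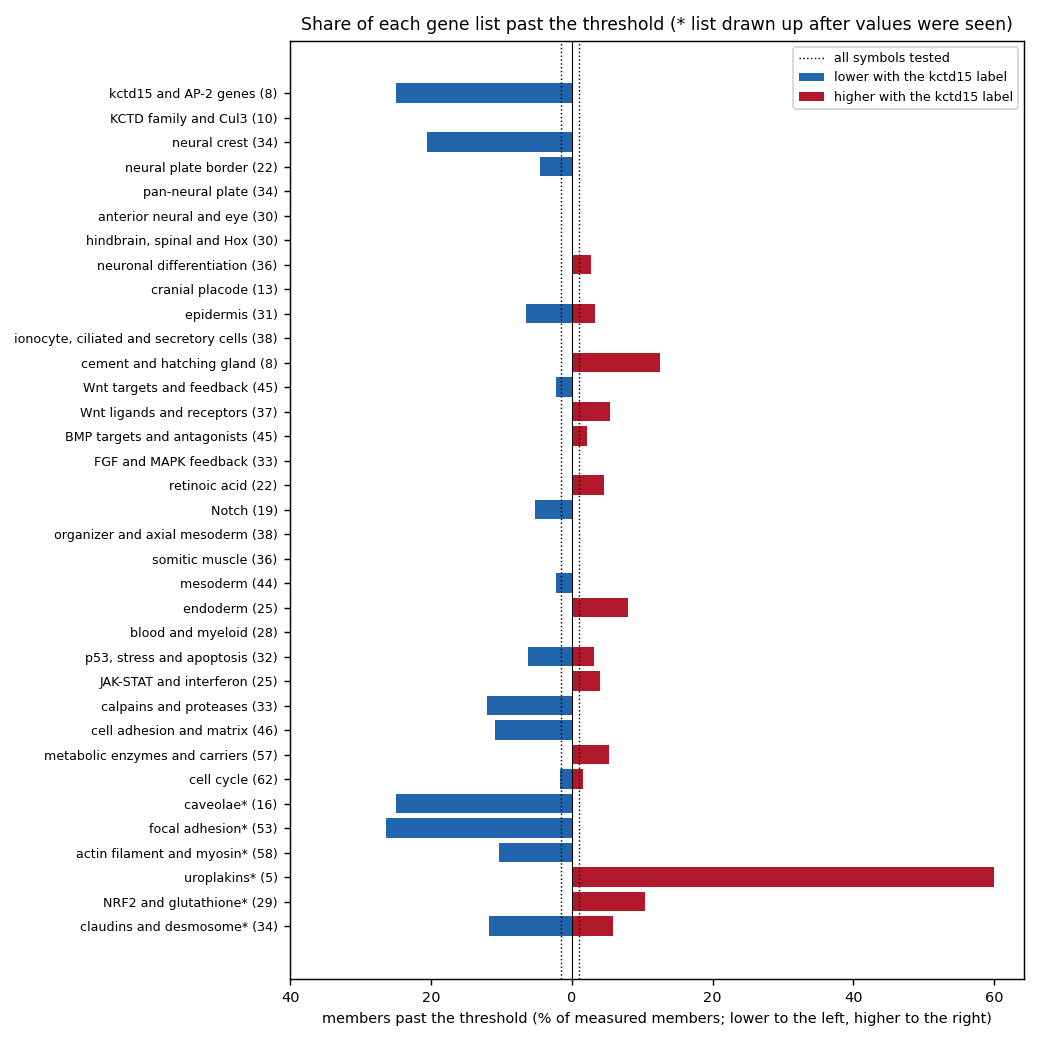
Share of the measured members of each gene list (number in brackets) past the threshold, in percent, with lower genes to the left and higher genes to the right of 0. The dotted lines mark all symbols tested, at 1.57% lower and 1.07% higher, and asterisks mark the 6 lists drawn up after values were seen.

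Xenopus laevis carries an L and an S copy of many genes, and their probe sets may each bind both transcripts. Of 130 called symbols whose other copy was measured, the other copy had the same direction for 98 and was itself called for 24 (18.5%). The shared direction (75.4%) is to be read against 64.9% of all 2009 measured pairs, of which 488 were below 0 in both copies and 815 above 0 in both. The copy was below 0 for 52 of 76 lower symbols, with 16 called, and above 0 for 46 of 54 higher symbols, with 8 called. These 24 formed 12 pairs, 8 lower and 4 higher. The lower pairs included tp63, snai2, itga5 and actn1, and the higher ones gata6 and kcnk1. Most other called genes named above thus rest on 1 copy. Copies that did not pass included atp12a.S (0.17), hpgds.S (0.17), krt19.L (0.16), nfe2l2.L (0.15) and twsg2.L (0.34). For capn1 and src, where the named copy fell, capn1.S and src.L were above 0 without passing (0.07 and 0.08). Adjusted p of these copies was 0.423 to 0.926. Where a called symbol had several probe sets, all of them shared its direction for 101 of 118 symbols, all passed for 35, and none passed in the opposite direction.

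Called genes closest to the edge of the sign rule had a small difference in 1 setting. These were smarca2.L and c17orf75.L among the lower, at -0.19 and -0.23 between wnt3a+chordin+kctd15 and wnt3a+chordin arrays and -0.75 and -0.57 between kctd15 and lacZ arrays. Among the higher they were grsf1.S and eola1.S, at 0.21 and 0.21 between wnt3a+chordin+kctd15 and wnt3a+chordin arrays and 0.45 and 0.53 between kctd15 and lacZ arrays. All 4 calls were lost with 1 array left out, those of smarca2.L and c17orf75.L without replicate 2 of lacZ (adjusted p of 0.118 and 0.119), that of grsf1.S without replicate 1 of lacZ (0.098) and that of eola1.S without replicate 2 of kctd15 (0.105). As no called probe set had opposite signs, none lay just outside the rule.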

How the data were processed

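Total RNA of animal caps was labelled with biotin by 3' in vitro transcription and hybridised to Affymetrix arrays, per the labels' protocols. The authors deposited 1 log2 expression value for each probe set and array. Groups follow the titles of the 12 arrays. Partek is named in the submitters' processing notes. Which version was used, and how background, summarising and scaling were handled, is not given in the sources used here. Without detection calls the lowest values have no known background limit, and precision is set by the number of arrays.

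Of 32635 probe sets, 96 controls and 64 reporters were not tested. Of the 32475 that were, 15495 had 1 gene symbol in the platform annotation, 279 several and 16701 none. Symbols were updated through the RefSeq annotation of Xenopus laevis 10.1 for 15384 and kept for 111. No coordinates or sequences are used.

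An additive fit (kctd15 label, wnt3a with chordin) was made over all 12 arrays in limma 3.58.1 under R 4.3.3 (lmFit, eBayes). P values are two-sided and adjusted by Benjamini and Hochberg over all probe sets before the sign rule was applied. Single settings and the interaction come from 4 group means in limma. Lists are described by counts and medians over 1 probe set per symbol, that with the highest mean, while a named gene shows the probe set with the largest effect unless stated; no set test was run.

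Arrays with the same replicate number deviated together from their group means (correlations of 0.18 to 0.71, median 0.50, 18 pairs, against -0.51 to 0.10, median -0.25, for 36 pairs of different numbers). Deviations within a group sum to 0, which ties the values of different numbers to those of the same number. The negative median is therefore no separate observation. The titles carry these numbers without saying what they stand for. The fit with the replicate block is given beside many, but not all, of the calls and counts that it changes. With the block, 4 uroplakins and 4 metabolic enzymes and carriers were higher. Lower with it were 5 calpains and proteases and 1 member of the JAK-STAT list. The focal adhesion list kept 14 lower members although lims1.S was lost, so another member joined.

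Named genes are the injected genes, up to 12 per direction with the largest effect among called probe sets whose arrays do not overlap in either setting (placeholder symbols left out), up to 4 called members per list or else the member with the smallest p, and the genes nearest the sign rule. Others were chosen after their values were seen, as were the genes that joined a list with the block. The members, lists and tests were chosen with earlier results of these data known, and 6 of the 35 lists after values were seen. On simulated data with 200 changed probe sets, the fit recovered 78.5% of changes of 1 log2 unit with 10 false calls and 94.5% of changes of 2 with 19. The simulated arrays had independent noise and the same change in both settings. The real arrays deviated together by replicate number and often changed unequally between settings, so these rates need not hold for them. Alternatives were the block, 4 group means, quantile normalization, median centring, array weights, other variance priors, dim probe sets left out, 1 probe set per gene, a threshold of 0.01, and arrays left out.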

Additional observations from a re-analysis of the deposited data

Results flagged for a closer look

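For 4 named genes the kctd15 difference with wnt3a and chordin departed from that without them in the interaction test of limma. The interaction is the difference between wnt3a+chordin+kctd15 and wnt3a+chordin arrays minus that between kctd15 and lacZ arrays, on the log2 scale. It was 1.68 for tat.S (adjusted p = 0.015), which rose by 2.91 with wnt3a and chordin and by 1.23 without them. It was -1.10 for twsg2.S (adjusted p = 0.0193), with differences of 0.83 with and 1.92 without wnt3a and chordin. For cavin1.L it was 1.97 (adjusted p = 0.0372), with differences of -0.64 with and -2.62 without them. For pitx3.S it was -1.15 (adjusted p = 0.0315), with differences of -0.06 with and 1.09 without them; its signs oppose each other, and it is no member of the shared set.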

How the results depend on the processing

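The 275 higher and 493 lower probe sets became 680 and 798 with the replicate block, 631 and 908 with 4 group means, 125 and 179 with 1 probe set per gene, and 48 and 164 at an adjusted p of 0.01. They stayed within 1.5 times with quantile normalization, median centring, array weights, both other variance priors and dim probe sets left out. Leaving out 1 array, or all arrays of 1 replicate number, gave 12 to 365 higher and 24 to 573 lower. Left out by number, the counts were 12 and 24 without replicate 1, 73 and 168 without replicate 2, and 24 and 74 without replicate 3, where each group keeps 2 arrays. Over the 29 lists, the 15 higher and 26 lower members became 27 higher with the block, 30 and 42 with 4 group means, and 5 and 11 at 0.01, and ranged from 0 to 20 and from 1 to 31 with arrays left out. Settings added after seeing the data left out replicate 2 of wnt3a+chordin+kctd15 and replicate 3 of lacZ. That gave 177 higher probe sets and 17 lower list members. Without replicate 3 of kctd15 as well, there were 121 higher and 234 lower probe sets and 11 lower list members. Of 74 named probe sets past the threshold, 37 passed with each array left out in turn and 74 passed with the block. Without replicate 2 of wnt3a+chordin+kctd15 and replicate 3 of lacZ, 52 passed. None of the 74 reversed under any alternative run. The uncalled chrd.1.S (0.22) reversed to -0.18 and -0.25 without replicates 1 and 2 of lacZ, -0.01 without replicate 1 of wnt3a+chordin, -0.08 without replicate 2 of wnt3a+chordin+kctd15, -0.44 without replicate 3 of kctd15, -0.04 and -0.07 without replicates 1 and 2 of every group, and -0.037 with the 3 arrays left out; with 1 array or number left out it ranged up to 0.99. Fewer arrays or tests are part of several of these settings; beyond that, the cause was not tested. The motif search in promoters was not run.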
